A study of Mus musculus with 6 samples.

Results

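The nuclear-encoded respiratory chain was followed as 45 genes, chosen by name and not by their values: 14 for complex I, 4 for complex II, 6 for complex III, 1 for cytochrome c, 9 for complex IV and 11 for complex V. All 45 were found among the 55416 genes counted, and all 45 were among the 14926 genes that passed the filter on low counts. RNA was sequenced from CD3+ spleen T cells of C57BL/6 mice of genotype WT that carried a graft, with 3 libraries from recipients of isografts (graft and host genetically identical) and 3 from recipients of allografts (graft and host genetically different). After purification the cells of both groups were kept in culture medium with bovine serum and antibiotics. The sources used here do not give the organ grafted, the donor strain, the interval after grafting, how long the cells were cultured or the ages of the animals. Nor is it said whether each library stands for its own mouse, so the p-values below speak of spread among libraries, part of which may be technical. The comparison asks whether the genes of complexes I to V differed together between the allograft and the isograft libraries, or complex by complex.

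The respiratory chain passes electrons from NADH (through complex I) and from succinate (through complex II) to ubiquinone, then through complex III and the small carrier cytochrome c to oxygen at complex IV. The protons pumped on the way drive ATP synthase, complex V. Most subunits are encoded in the nucleus and imported, a core set is encoded by mitochondrial DNA, and T cells that leave the resting state are known to enlarge their mitochondria and to use respiration for growth.

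Library totals ran from 30066137 to 37821738 counts, and the 45 genes together took 0.332% to 0.344% of all counts in isograft libraries and 0.371% to 0.380% in allograft libraries. Levels below are CPM, each count set against the total of its library, scaled by TMM, a method that sets library sizes by the bulk of the genes. Its factors were 1.07 to 1.10 in isograft and 0.915 to 0.936 in allograft libraries. Scaling by the library totals alone moved the median log2 fold change of all genes tested by -0.22, so a change in the text is one relative to the other genes. T cell markers (11 genes, 3 called higher and 6 lower) summed to 2074 to 2170 CPM in isograft and 1570 to 1761 CPM in allograft libraries, and Cd3e, a chain of the CD3 complex, was at 122.6 ± 3.0 and 79.1 ± 12.5 CPM (SD, n = 3). The coreceptor Cd4 fell from 211 ± 18.5 to 71.2 ± 4.99 CPM (edgeR adjusted p = 3.0e-12) and Cd247, the zeta chain, from 379 ± 22.2 to 149 ± 4.02 CPM (3.9e-12), while Cd5 rose from 30.8 ± 2.48 to 80.4 ± 5.47 CPM (3.7e-11). The exons of Cd247 overlap other genes, Gm16565 and Pou2f1, over 60.3% of their length. Its level, and its part in the T cell sum, are therefore uncertain. B cell markers (10 genes, 4 called higher and 5 lower) were present at 2131 to 2314 and 2111 to 2290 CPM, with Ms4a1 at 124.6 ± 4.35 and 143.0 ± 2.33 CPM, so the libraries held B cell RNA as well as T cell RNA. That sum holds opposite changes: Fcer2a, the low-affinity IgE receptor CD23, rose from 52.8 ± 0.95 to 378 ± 22.6 CPM (edgeR adjusted p = 4.0e-16), and the other 9 genes summed to 2078 to 2262 and then 1759 to 1900.4 CPM, without overlap. Among these Cd79b, a chain of the B cell receptor, fell from 148 ± 7.62 to 80.9 ± 1.38 CPM (edgeR adjusted p = 2.3e-09) and the complement receptor Cr2 rose from 29.4 ± 2.75 to 53.95 ± 2.85 CPM (5.2e-08). Sums of the other lists were lower: 94.7 to 100.02 and 73.6 to 86.6 CPM for 6 macrophage and monocyte genes, 39.8 to 42.4 and 25.9 to 26.9 CPM for 4 plasma cell genes, 26.6 to 29.3 and 28.8 to 31.6 CPM for 4 NK cell genes, and at most 10.2 CPM for neutrophil, erythroid and platelet genes, with Ppbp, a platelet gene, at 0 in every library. The part of these cell types in the results below was not tested, and in bulk RNA fewer cells of a type and less RNA per cell cannot be told apart.

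Of the 45 genes, 24 were higher and 2 were lower in allograft libraries by edgeR's quasi-likelihood test (Benjamini-Hochberg adjusted p at most 0.05), and 19 were not called. Among all genes tested, 28.7% were called higher and 29.1% lower. The median log2 fold change, allograft minus isograft, was 0.31 over the 45 genes and -0.01 over all genes tested. In 21 of the 45 every allograft library was above every isograft library, against 31.3% of all genes tested, and in 2 every allograft library was below, against 32.1%. The complexes differed in their counts. Complex III had 5 of 6 genes higher, complex V 8 of 11, complex IV 5 of 9, complex I 5 of 14 and complex II 0 of 4, and the 1 cytochrome c gene was higher. The 2 lower genes were Ndufa13 of complex I and Sdha of complex II. Median log2 fold changes were 0.37 for complex III, 0.38 for complex V, 0.39 for complex IV and -0.04 for complex II; the complex I median of 0.18 turned to -0.05 when libraries were scaled by their totals. The difference between complexes was not tested.

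**Figure D1:**
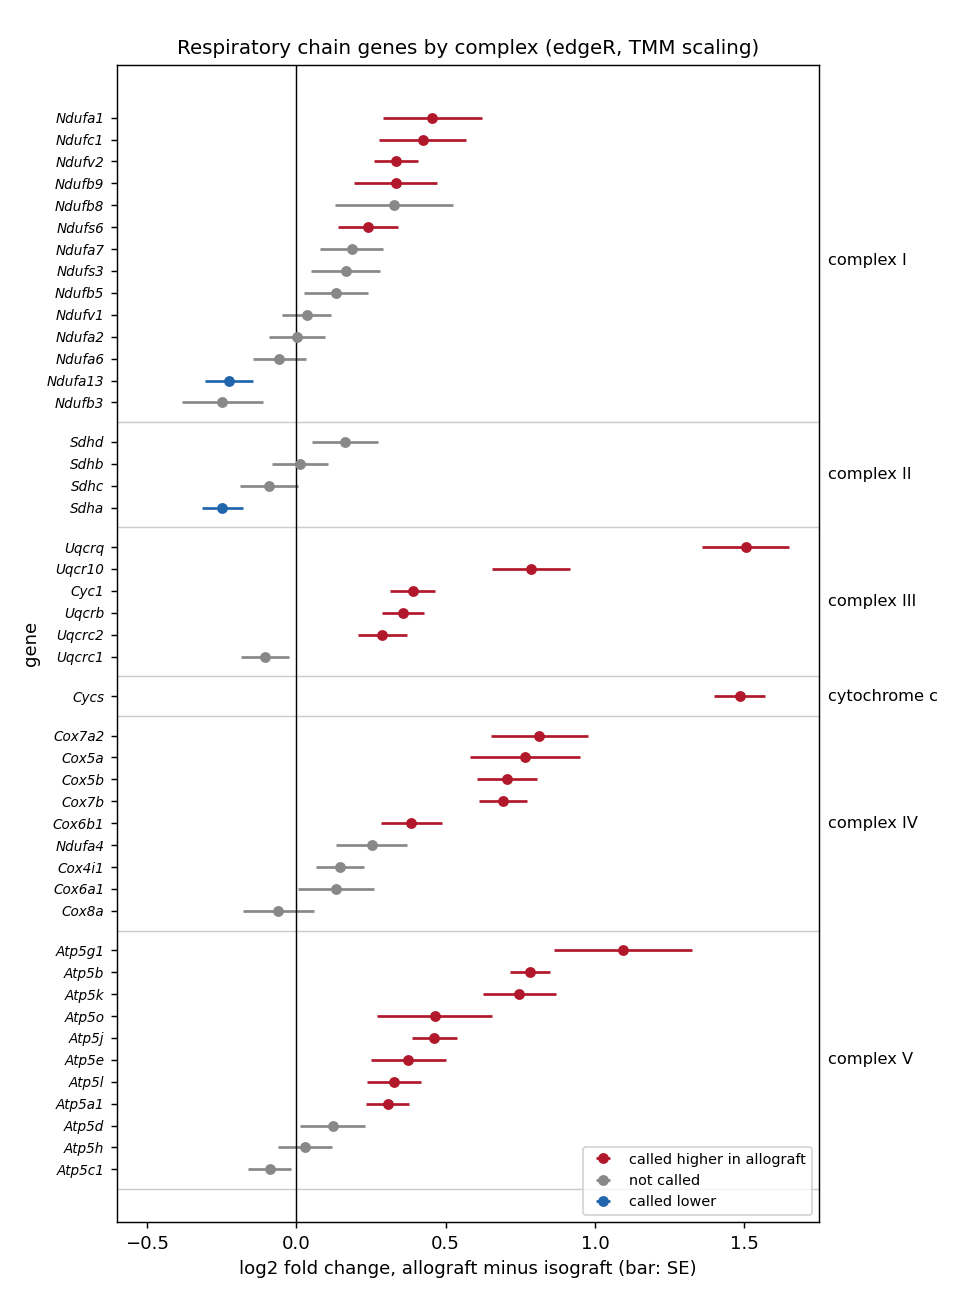
Log2 fold change (allograft minus isograft, horizontal axis) of each of the 45 genes, grouped by complex, with its SE as a bar and its call by color. Uqcrq, Cycs and Atp5g1 are the 3 genes past 2-fold, complexes III to V lie mostly to the right of 0, and the complex II genes stay within -0.25 and 0.16.

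**Figure D2:**
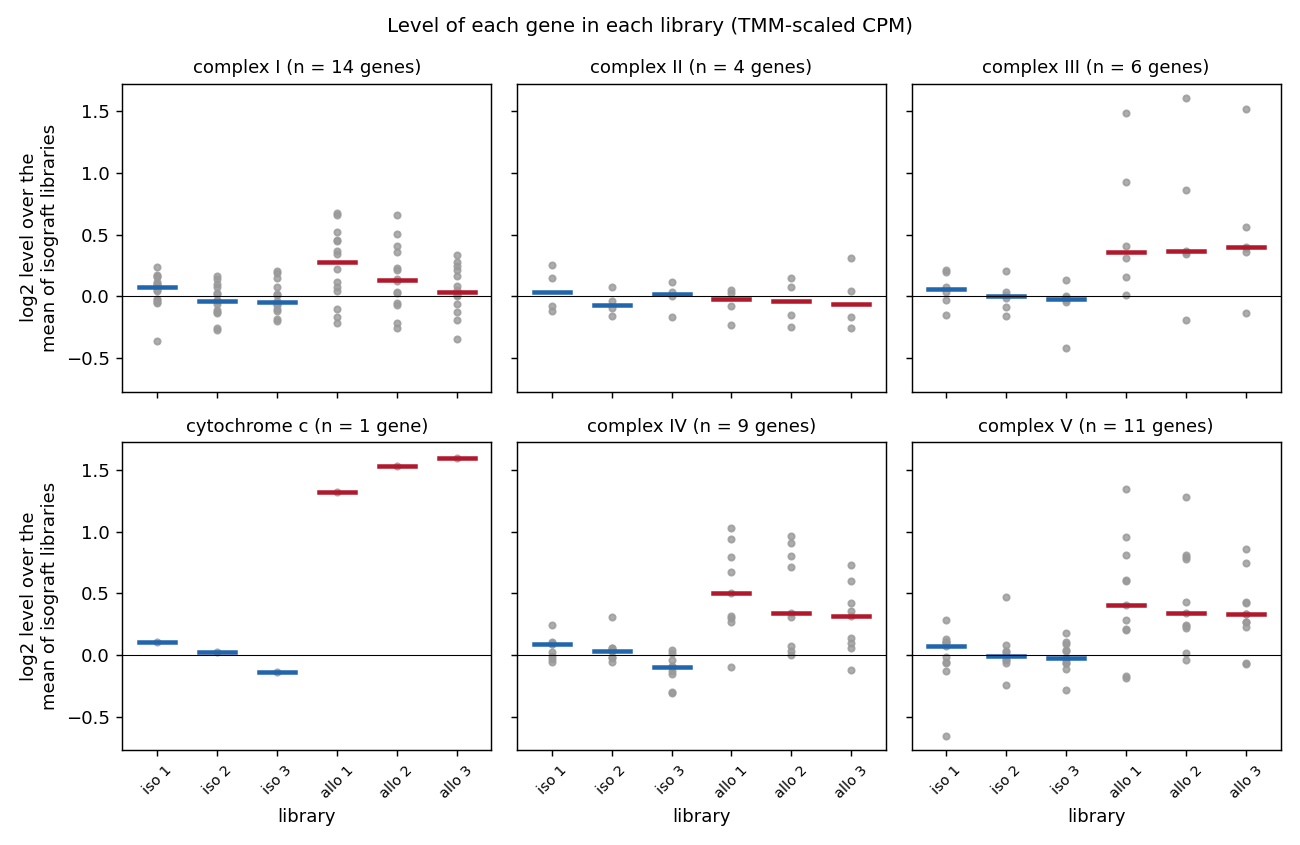
Log2 level of each gene (gray points) in each library over its own mean in the isograft libraries, one panel per complex, with the median of the complex as a bar (blue isograft, red allograft). The allograft medians of complex III are 0.36 to 0.40 and those of complex V 0.33 to 0.41, while those of complex II are -0.06 to -0.02 and those of complex I spread from 0.03 to 0.28.

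Promoter sequences are shown for 4 genes because they carry the same match to the NRF1 motif, the site of a nuclear activator of respiratory genes, while 2 of the 4 rose (Cycs and Atp5k) and 2 were not called (Cox6a1 and Sdhb). Each is the 250 bases before the RefSeq transcription start on GRCm38.p6, 5′ to 3′ on the strand of the gene. Capitals mark every match to the 5 motifs searched. The windows are chr6:50566570-50566819 (minus strand) for Cycs, chr5:108434400-108434649 (minus) for Atp5k, chr5:115348959-115349208 (minus) for Cox6a1 and chr4:140961021-140961270 (plus) for Sdhb.
Cycs: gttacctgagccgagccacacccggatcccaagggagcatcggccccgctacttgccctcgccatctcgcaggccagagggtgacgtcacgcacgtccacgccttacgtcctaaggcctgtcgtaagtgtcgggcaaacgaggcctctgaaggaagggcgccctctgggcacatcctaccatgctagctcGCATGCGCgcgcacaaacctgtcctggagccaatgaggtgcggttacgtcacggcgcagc
Atp5k: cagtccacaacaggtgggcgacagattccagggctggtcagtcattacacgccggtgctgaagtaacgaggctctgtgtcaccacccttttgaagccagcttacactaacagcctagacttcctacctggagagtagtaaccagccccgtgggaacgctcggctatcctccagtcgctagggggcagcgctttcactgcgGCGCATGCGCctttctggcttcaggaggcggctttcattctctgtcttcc
Cox6a1: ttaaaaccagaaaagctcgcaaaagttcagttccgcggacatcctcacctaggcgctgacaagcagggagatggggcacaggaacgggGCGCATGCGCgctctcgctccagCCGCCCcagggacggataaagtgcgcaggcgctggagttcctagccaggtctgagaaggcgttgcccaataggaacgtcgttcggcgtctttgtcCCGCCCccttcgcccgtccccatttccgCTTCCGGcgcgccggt
Sdhb: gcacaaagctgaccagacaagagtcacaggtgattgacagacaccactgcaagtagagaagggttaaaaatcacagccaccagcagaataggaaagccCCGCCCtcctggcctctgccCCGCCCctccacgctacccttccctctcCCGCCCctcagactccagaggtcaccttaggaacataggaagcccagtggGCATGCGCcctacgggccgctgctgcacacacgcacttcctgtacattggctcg

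The NRF1 match (GCGCATGC, searched on both strands) lies 60 to 53 bases before the RefSeq start of Cycs and 54 to 47 bases before that of Sdhb. In Atp5k and Cox6a1 matches on both strands overlap, at 50 to 41 and at 162 to 153 bases before the start. RefSeq windows were found for 36 of the 45 genes. The NRF1 letters stood in 6 of the 36 (16.7%) against 2.56% of the 27025 genes of the table, in 3 of 18 genes called higher and 3 of 18 genes not called higher. The ETS letters (CCGGAAG, the core bound by GABP) stood in 8 of 36 (22.2%, against 7.83%), 4 in each set of 18, and the E-box (CACGTG, bound by MYC and other factors) in 4 of 36 (11.1%, against 6.86%), 2 in each set. The YY1 letters (AAGATGGCG) were in 1 of 36 (against 0.71%) and the GC box (GGGCGG) in 12 of 36 (33.3%, against 35.4%), 7 among those called higher and 5 among the others. These are matches of letters and not measured binding. The 27025 genes were not limited to those tested here, so the percents do not set the 36 beside genes of like expression. The first transcribed bases after the Cycs window matched no transcript of the gene in the annotation used for that check, so its distances rest on the RefSeq start alone.

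Complex I had the lowest share of calls among the pumping complexes. Ndufv2, which holds an iron-sulfur cluster beside the NADH site (chromosome 17, 66385633 to 66408554, minus strand, GRCm39), was at 72.2, 66.1 and 64.3 CPM in isograft replicates 1 to 3 and at 87.0, 86.4 and 81.9 CPM in allograft replicates 1 to 3. The groups did not overlap, and the gene rose by 0.33 ± 0.07 on the log2 scale (SE, edgeR adjusted p = 0.00073). Ndufc1, an accessory subunit of the membrane arm (chromosome 3, 51312098 to 51316409, minus strand), was at 7.59, 5.85 and 5.99 CPM and then 8.81, 9.10 and 8.11 CPM, again without overlap (0.42 ± 0.15, edgeR adjusted p = 0.017). Ndufa13, also known as GRIM-19 (chromosome 8, 70346830 to 70355208, minus strand), went the other way, from 99.99, 81.4 and 86.6 CPM to 76.7, 74.6 and 77.9 CPM. Every allograft library lay below every isograft library, and the gene fell by 0.23 ± 0.08 on the log2 scale (edgeR adjusted p = 0.022). The exons of Ndufa13 overlap those of Tssk6 on the opposite strand over 29.98% of their length, and the counting did not use strand.

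The other 3 complex I calls had overlapping groups. Ndufa1 of the membrane arm was at 11.5, 9.47 and 9.76 CPM in isograft and 16.1, 16.1 and 9.78 CPM in allograft libraries (0.46 ± 0.17, edgeR adjusted p = 0.028). Its allograft replicate 3 lay among the isograft values. Ndufs6, a matrix arm subunit that binds zinc, had 1 such library too, at 32.7, 34.3 and 34.1 against 45.9, 39.6 and 33.9 CPM (0.24 ± 0.10, edgeR adjusted p = 0.044). So did Ndufb9, at 8.47, 8.78 and 8.70 against 12.4, 11.5 and 8.75 CPM (0.33 ± 0.14, edgeR adjusted p = 0.047). Ndufv1, which binds NADH and the flavin, was not called, at 37.3 ± 1.85 and 38.2 ± 1.07 CPM. Ndufs3, Ndufa2, Ndufa6 and Ndufa7 of the matrix arm were not called, nor were Ndufb3, Ndufb5 and Ndufb8 of the membrane arm, with log2 fold changes from -0.25 (Ndufb3) to 0.33 (Ndufb8). By arm, 2 of 7 matrix genes and 3 of 7 membrane genes were called higher.

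Each complex I call other than that of Ndufv2 was lost in at least 1 fit with a library left out. Such fits have fewer samples, and over all genes 3891 to 4134 were called higher in them, in place of 4283. With 1 library left out complex III kept 5 genes called higher, complex IV 5 and complex V 6 to 8, while the complex I count of 5 became 3 without isograft replicate 1, 1 without isograft replicate 2, 1 without isograft replicate 3, 2 without allograft replicate 1 and 1 without allograft replicate 2. Ndufs6 and Ndufb9 each lost the call without any 1 of those 5 libraries, with edgeR adjusted p from 0.083 to 0.32 and from 0.092 to 0.24. Without allograft replicate 1 their log2 fold changes were 0.12 and 0.22. Ndufa1 lost it without isograft replicate 2 (0.097) or 3 (0.089) or allograft replicate 1 (0.12) or 2 (0.13), and Ndufc1 without isograft replicate 2 (0.086) or 3 (0.069) or allograft replicate 2 (0.067), all edgeR adjusted p. Ndufa13 was not called without isograft replicate 1 (-0.14, edgeR adjusted p = 0.16) or allograft replicate 2 (-0.21, 0.088), and Ndufb3 was called lower without isograft replicate 2 (-0.37, 0.036). Ndufv2 kept its call with each library left out.

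Complex II, which is also an enzyme of the citric acid cycle, had no gene called higher. Sdha, the flavoprotein that oxidizes succinate (chromosome 13, 74470373 to 74498399, minus strand), was at 216, 246 and 240.3 CPM in isograft and at 199, 197 and 196 CPM in allograft libraries. The 3 allograft values lay within 3 CPM of one another and below all isograft values. Sdha fell by 0.25 ± 0.07 on the log2 scale (edgeR adjusted p = 0.0052). Sdhb, the iron-sulfur subunit whose promoter is printed above, was at 38.9, 31.4 and 35.0 against 33.3, 36.9 and 36.1 CPM, so the groups overlapped (0.01 ± 0.09, edgeR adjusted p = 0.92). The membrane anchors Sdhc (25.7 ± 1.87 and 24.1 ± 1.81 CPM) and Sdhd (27.0 ± 4.39 and 30.3 ± 2.74 CPM) overlapped as well, with edgeR adjusted p of 0.44 and 0.22. Without isograft replicate 1, which had the highest Sdhd value, Sdhd was called higher (0.30, edgeR adjusted p = 0.027).

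Complex III rose in 5 of its 6 genes, and the gene with the largest fold change of all 45 was among them. Uqcrq, a small accessory subunit (chromosome 11, 53318749 to 53321658, minus strand), was at 37.4, 37.2 and 24.2 CPM in isograft and at 90.1, 98.3 and 92.4 CPM in allograft libraries. The lowest allograft value was above 2 times the highest isograft value. The log2 fold change was 1.5 ± 0.14, or 2.84-fold (edgeR adjusted p = 6.4e-06). Uqcr10, another small subunit (chromosome 11, 4651973 to 4654342, minus strand), went from 10.8, 8.44 and 9.105 to 17.8, 17.1 and 13.8 CPM without overlap (0.79 ± 0.13, edgeR adjusted p = 3.3e-05). Cyc1 is cytochrome c1, the subunit that hands electrons to cytochrome c (chromosome 15, 76227723 to 76230460, plus strand). It had tight groups at 39.6, 41.4 and 40.2 against 53.6, 52.2 and 53.1 CPM (0.39 ± 0.08, edgeR adjusted p = 0.00019). Uqcrb (81.6 ± 2.0 to 104.6 ± 3.49 CPM, edgeR adjusted p = 2.0e-04) and the core protein Uqcrc2 (44.3 ± 2.42 to 54.1 ± 4.24 CPM, 0.0057) rose as well. The other core protein, Uqcrc1, did not move with them, at 103, 115 and 125 against 115, 100.1 and 104.1 CPM (-0.10 ± 0.08, edgeR adjusted p = 0.29). The ratio of Uqcrq to Uqcrc1 counts, which no scaling of the library can change, was 0.193 to 0.362 in isograft and 0.780 to 0.982 in allograft libraries.

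Cytochrome c, encoded by Cycs (chromosome 6, 50539543 to 50543518, minus strand), carries electrons between complexes III and IV and, once released into the cytosol, helps start apoptosis. Its level was 57.7, 54.7 and 48.7 CPM in isograft and 134, 155 and 162 CPM in allograft libraries. Every allograft library was above 2 times the highest isograft value. The log2 fold change of 1.48 ± 0.09 (2.80-fold, edgeR adjusted p = 1.8e-11) had the smallest adjusted p among the 45 genes. Hccs, the enzyme that attaches heme to cytochrome c, went from 13.1 ± 1.20 to 30.9 ± 1.22 CPM (1.24 ± 0.10, edgeR adjusted p = 2.9e-09). The partner on complex III rose less. The ratio of Cycs to Cyc1 counts was 1.46, 1.32 and 1.21 in isograft and 2.5, 2.96 and 3.05 in allograft libraries. Of the 50-base stretches of Cycs transcripts, 28.5% also occur in other genes, so reads from them could be left out as multi-mapped. Cyct, the testis form of cytochrome c, had 0 counts in all 6 libraries, which allows up to 3 counts, or 0.107 CPM in the smallest library after scaling.

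Complex IV had 5 genes higher and none lower. Cox7b (chromosome X, 105059306 to 105066056, plus strand) was at 66.55, 60.9 and 57.9 CPM in isograft and at 98.3, 107.8 and 93.5 CPM in allograft libraries, with no overlap (0.69 ± 0.08, edgeR adjusted p = 3.3e-07). Cox5b, a matrix-side subunit that binds zinc (chromosome 1, 36730530 to 36732762, plus strand), had the highest level per kilobase of the group (103 CPM in isograft libraries) and was at 157, 168 and 165.5 against 313, 268 and 219 CPM. Its allograft libraries varied more than its isograft libraries, and all lay above them (0.71 ± 0.10, edgeR adjusted p = 2.2e-05). Cox7a2 (chromosome 9, 79662643 to 79667160, minus strand) was at 5.53, 4.81 and 3.80 against 8.07, 9.10 and 7.71 CPM (0.81 ± 0.16, edgeR adjusted p = 0.00024). Cox5a (5.99 ± 1.28 to 10.2 ± 2.36 CPM, edgeR adjusted p = 0.0018) and Cox6b1 (20.4 ± 1.86 to 26.6 ± 1.85 CPM, 0.0028) completed the 5, both without overlap. Cox4i1, the largest nuclear-encoded subunit, was not called at 94.3 ± 2.42 and 104.3 ± 11.9 CPM (edgeR adjusted p = 0.13). Cox6a1, with the NRF1 match printed above (9.23 ± 0.73 and 10.1 ± 0.83 CPM, 0.39), and Cox8a (10.9 ± 0.56 and 10.4 ± 0.59 CPM, 0.69) were not called either. Ndufa4 was first described in complex I and is now counted with complex IV. Its values were 10.98, 9.94 and 10.1 against 12.7, 12.8 and 11.3 CPM, without overlap, and it missed the threshold (0.25 ± 0.12, edgeR adjusted p = 0.076).

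The forms of complex IV subunits that belong to other tissues stayed low. Cox8b and Cox8c had 0 counts in every library, Cox4i2 and Cox7a1 stayed under 0.4 CPM, and none of the 4 passed the filter. Cox6a2, the muscle form, was called higher at 0.26 ± 0.18 and 0.74 ± 0.27 CPM (edgeR adjusted p = 0.031). That call was lost without isograft replicate 1 (0.13) or 3 (0.085) or allograft replicate 1 (0.16) or 3 (0.062). Cox6b2, the testis form, fell by 0.90 on the log2 scale from 2.59 ± 0.53 to 1.39 ± 0.32 CPM (edgeR adjusted p = 0.0074, and 0.051 without isograft replicate 1). Per kilobase of exon, the widely expressed partner Cox6a1 stood at 13.1 CPM and Cox6a2 at 0.38 CPM in isograft libraries, and Cox6b1 at 28.8 CPM and Cox6b2 at 2.34 CPM.

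Complex V had 8 of 11 genes higher and held the gene with the most counts. Atp5b, the catalytic beta subunit (chromosome 10, 127919142 to 127926260, plus strand), was at 521, 553 and 555 CPM in isograft and at 953, 942 and 908 CPM in allograft libraries. The groups were far apart beside their spread, and the log2 fold change was 0.78 ± 0.07 (1.72-fold, edgeR adjusted p = 5.6e-09). Atp5j, coupling factor 6 of the stalk (chromosome 16, 84624754 to 84632513, minus strand), went from 185, 192 and 185 to 285, 253 and 236 CPM (0.46 ± 0.08, edgeR adjusted p = 2.6e-05). Its exons overlap Gabpa on the opposite strand over 12.7% of their length. Atp5k, subunit e of the membrane part (chromosome 5, 108581110 to 108582314, minus strand), went from 15.9, 14.8 and 13.7 to 28.6, 25.9 and 19.9 CPM without overlap (0.75 ± 0.12, edgeR adjusted p = 3.5e-05).

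Subunits of one rotary engine did not move alike. The alpha subunit Atp5a1, present with beta in equal number in the enzyme, rose less than Atp5b, from 334 ± 18.6 to 413 ± 26.5 CPM (0.31 ± 0.07, edgeR adjusted p = 0.0012). The ratio of Atp5b to Atp5a1 counts was 1.56 to 1.70 in isograft and 2.15 to 2.39 in allograft libraries. The gamma shaft Atp5c1 was at 128, 121 and 116 against 108, 118 and 116 CPM, overlapping (-0.09 ± 0.07, edgeR adjusted p = 0.30), and Atp5d (delta) was not called (17.8 ± 1.35 and 19.3 ± 2.08 CPM, 0.36). Atp5h, subunit d of the stalk, was not called, at 322 ± 20.7 and 329 ± 47.0 CPM (0.03 ± 0.09, edgeR adjusted p = 0.80). Atp5l, subunit g, rose from 30.5 ± 1.94 to 38.2 ± 2.81 CPM (edgeR adjusted p = 0.0039). Atp5e (epsilon) rose from 15.3 ± 2.13 to 19.8 ± 2.83 CPM (0.015), and lost the call without isograft replicate 2 (0.11) or allograft replicate 1 (0.12). Atp5o, the oligomycin-sensitivity protein, was called at 4.84, 3.97 and 3.27 against 4.84, 6.83 and 5.01 CPM (0.46 ± 0.19, edgeR adjusted p = 0.046). One allograft library of Atp5o equalled the highest isograft library, and the call was lost without isograft replicate 2 (0.10) or 3 (0.19) or allograft replicate 2 (0.29 log2, 0.27). Its exons overlap other gene models over 47.9% of their length, on the same strand a second gene that carries the same symbol.

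Subunit c, the proton-carrying ring, is made from 3 nuclear genes that encode the same mature protein. Atp5g1 (chromosome 11, 95959678 to 95966496, minus strand), the c gene among the 45, was at 2.15, 4.69 and 3.83 CPM in isograft and 8.59, 8.21 and 6.11 CPM in allograft libraries. The groups did not overlap and the log2 fold change was 1.09 ± 0.23 (2.13-fold, edgeR adjusted p = 0.00075). Atp5g3 rose from 23.8 ± 0.46 to 32.1 ± 3.86 CPM (0.44 ± 0.10, edgeR adjusted p = 0.00074), and Atp5g2 was at 8.44 ± 1.26 and 8.26 ± 1.41 CPM (-0.03 ± 0.16, edgeR adjusted p = 0.88). Of the counts of the 3 genes, Atp5g1 took 6.16%, 12.6% and 10.9% in isograft and 15.8%, 17.6% and 14.2% in allograft libraries. The 95% Wilson interval was 4.91% to 7.70% for the lowest of these, 10.99% to 14.3% for the highest isograft library and 12.4% to 16.3% for the lowest allograft library, counting error only. Atp5g3 kept most of the counts in both groups (63.1% to 69.2% and 63.4% to 70.3%), and Atp5g2 took 19.9% to 26.5% and then 15.5% to 19.0%.

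Set against one another within a library, some complexes changed in their share. Of the summed CPM of the 45 genes, complex II took 9.96%, 10.53% and 10.496% in isograft and 6.88%, 7.10% and 7.27% in allograft libraries. Complex I took 14.2% ± 0.47 and 11.8% ± 0.35 (SD, n = 3), also without overlap. Its summed level with TMM scaling did not fall, at 444 ± 15.6 and 477 ± 25.5 CPM with overlapping groups. Cytochrome c took 1.72% ± 0.14 and 3.71% ± 0.44 and complex V 51.1% ± 0.33 and 53.4% ± 0.70, both higher in every allograft library. Complex III took 10.4% ± 0.08 and 10.6% ± 0.27, overlapping, and complex IV took 12.2% ± 0.17 and 13.5% ± 1.25 with overlapping groups. A share does not depend on how the libraries are scaled, but it follows the abundant genes: Sdha made up most of complex II, and Atp5b, Atp5a1 and Atp5h most of complex V. The ratio of Atp5b to Sdha counts was 2.41, 2.24 and 2.31 in isograft and 4.79, 4.77 and 4.63 in allograft libraries. Atp5b was called higher and Sdha lower, so their ratio restates those calls without the scaling and is not separate evidence. Ratios of other gene pairs in the text likewise restate the fold changes of their genes.

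**Figure D3:**
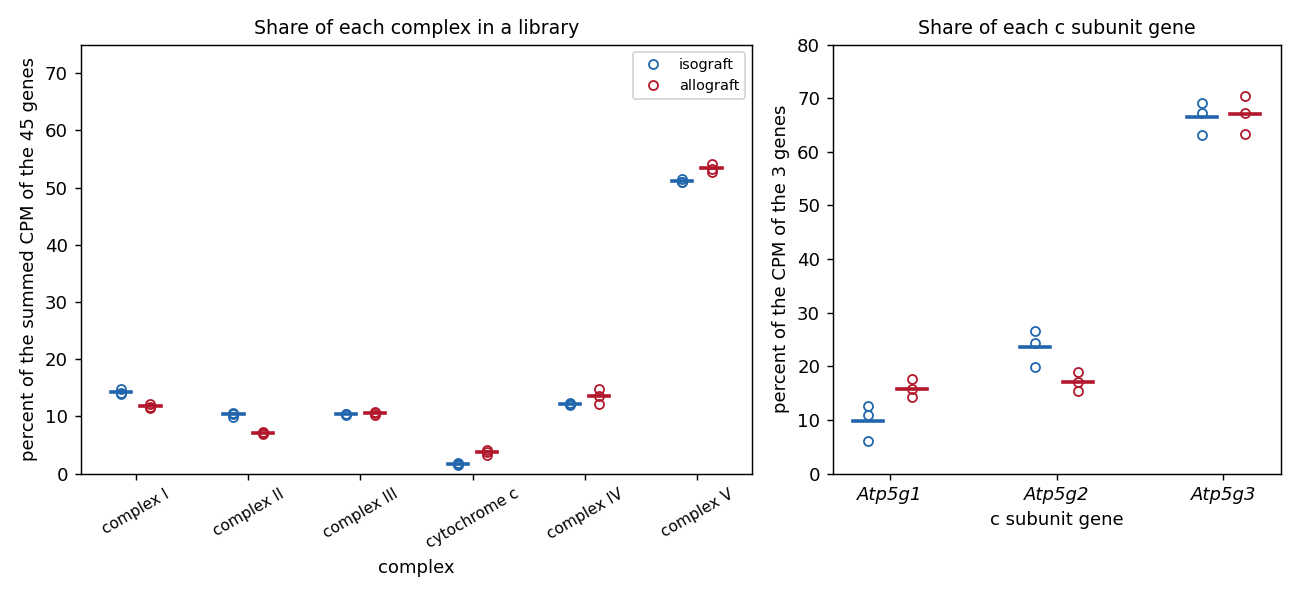
Left, the percent of the summed CPM of the 45 genes that each complex took in each library (circles, bar at the mean of 3). Right, the percent of the CPM of the 3 subunit c genes taken by each; complexes I and II are lower, cytochrome c and complex V higher, and Atp5g1 higher in all 3 allograft libraries.

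Levels of different genes were compared per kilobase of exon, as CPM per kilobase. The order in isograft libraries began with Atp5h (219.9), Atp5b (128), Atp5a1 (107), Cox5b (103) and Uqcrb (93.2), and ended with Atp5o (2.04) and Atp5g1 (0.72). In allograft libraries Atp5h (225) and Atp5b (220.5) did not differ beyond their spread, followed by Cox5b (168), Atp5a1 (132) and Uqcrb (119). Cox5b stood after Atp5a1 in the isograft order and before it in the allograft order, and Atp5g1 (1.55) was last in both. Atp5a1 and Cox5b did not differ beyond their spread in isograft libraries. Exon lengths are sums over all annotated transcripts, which lowers this value for genes with long rare transcripts.

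Subunits that are not among the 45 were read from a list of 33 more nuclear genes of complexes I, III, IV and V. Of these 18 were higher (54.5%, against 28.7% of all genes tested) and 4 lower, with a median log2 fold change of 0.26. With the members these make 78 nuclear subunits, without the tissue forms given above, among which Cox6b2 was called lower. Of the 78, 42 were higher and 6 lower. Complex I had 15 higher and 5 lower of 36. Complex III had 7 of 9 higher, complex IV 7 of 11 and complex V 12 of 17, with 0 lower in these 3. In complex I, Ndufv3, an accessory subunit of the NADH module, fell by 0.63 from 88.4 ± 0.59 to 57.1 ± 5.54 CPM (edgeR adjusted p = 1.1e-06). Ndufa5 rose from 42.8 ± 1.37 to 67.0 ± 7.14 CPM (edgeR adjusted p = 2.0e-06), and Ndufb4 from 14.4 ± 2.56 to 26.0 ± 1.86 CPM (6.8e-06). Uqcrfs1, the Rieske iron-sulfur protein of complex III, rose from 47.7 ± 3.58 to 67.0 ± 1.93 CPM (edgeR adjusted p = 2.2e-05). Uqcr11 rose with it (0.50 ± 0.13, edgeR adjusted p = 0.0036), less without allograft replicate 1 (0.31, 0.031), while Uqcrh, the hinge protein, was not called (173.7 ± 8.37 and 172 ± 27.5 CPM, 0.93). Cox6c (0.59 ± 0.09, edgeR adjusted p = 9.2e-06) and Cox7c (0.32 ± 0.09, 0.0032) of complex IV rose, as did Atp5f1, subunit b of the ATP synthase stalk (0.43 ± 0.07, 1.8e-05), and Atp5mpl, a small subunit of its membrane part (0.44 ± 0.09, 2.6e-04).

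Assembly factors build the complexes and are not part of them. Of 48 listed, 47 were matched and 45 were tested, with 18 higher, 5 lower and a median log2 fold change of 0.22. The 18 are 40% of those tested, where 28.7% of all genes tested were called higher and 29.1% lower. For complex I, 8 of 15 were higher and 1 lower. Ndufaf4, an assembly factor of complex I, was at 16.1, 13.9 and 15.5 CPM in isograft and 53.8, 64.5 and 60.1 CPM in allograft libraries. The groups lay far apart, and its log2 fold change of 1.97 ± 0.10 (3.93-fold, edgeR adjusted p = 1.2e-12) was larger than that of every subunit tested. Ndufaf2 rose too (0.79 ± 0.09, edgeR adjusted p = 2.7e-07). Its exons overlap a gene on the opposite strand over 65.6% of their length, and the counting did not use strand. Tmem126b, a membrane factor for the same complex, fell from 81.5, 81.3 and 88.9 to 37.5, 36.6 and 39.9 CPM (-1.14 ± 0.08, edgeR adjusted p = 1.6e-10). Set against a subunit, the ratio of Ndufaf4 to Ndufv1 counts was 0.41 ± 0.03 in isograft and 1.56 ± 0.17 in allograft libraries.

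Complexes III and IV also had factors called in both directions. For complex II, 0 of 4 were higher, and Sdhaf4, which helps load Sdha into the complex, fell by 1.10 on the log2 scale from 2.84 ± 0.45 to 1.32 ± 0.31 CPM (edgeR adjusted p = 0.0013). Sdhaf1 (0.30 ± 0.03 and 0.51 ± 0.09 CPM) and Sdhaf3 (2.33 ± 0.69 and 3.11 ± 0.57 CPM) were not called, although Sdhaf3 was called higher without isograft replicate 2 (0.68, edgeR adjusted p = 0.038). For complex III, 4 of 6 were higher and 1 lower: Uqcc2 rose from 15.98 ± 1.13 to 38.9 ± 4.59 CPM (1.28 ± 0.10, edgeR adjusted p = 2.3e-09) and Ttc19 by 0.55 ± 0.11 (3.4e-04), while Uqcc3 fell from 71.4 ± 0.70 to 42.1 ± 2.95 CPM (-0.76 ± 0.08, 5.9e-08). For complex IV, 4 of 17 were higher (23.5%, against 28.7% of all genes tested) and 2 lower, the lowest share called higher of the pumping complexes. The 2 lower were Cox14 (-0.59 ± 0.12, edgeR adjusted p = 3.2e-04) and Surf1 (-0.47 ± 0.10, 4.1e-04). Sco1, a copper chaperone, rose from 14.8 ± 1.84 to 40.9 ± 0.41 CPM (1.47 ± 0.10, edgeR adjusted p = 2.0e-10), Cox10, which makes heme o on the way to heme a, by 0.95 ± 0.12 (1.2e-06), and Coa7 by 0.73 ± 0.13 (1.1e-04). For complex V, 2 of 3 were higher, Tmem70 (0.78 ± 0.12, edgeR adjusted p = 1.7e-05) and Atpaf2 (0.40 ± 0.08, 3.2e-04), and Atpaf1 was not called (-0.14 ± 0.14, 0.40). Atpif1, the peptide that blocks ATP hydrolysis by complex V, fell from 8.95, 6.96 and 7.92 to 4.68, 2.72 and 4.69 CPM (-0.97 ± 0.19, edgeR adjusted p = 2.2e-04).

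**Figure D4:**
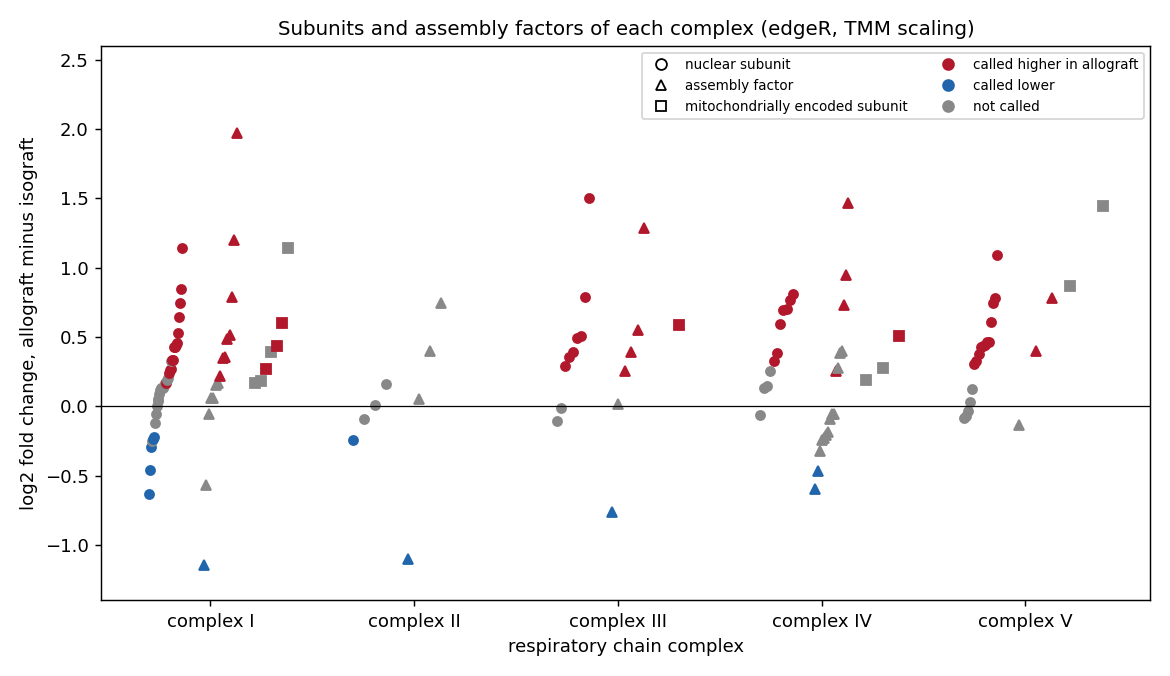
Log2 fold change (vertical axis) of the tested nuclear subunits (circles), assembly factors (triangles) and mitochondrially encoded subunits (squares) of complexes I to V. Points are ordered within each set and colored by call, and the tissue forms of subunits are not drawn. Factors of every complex lie on both sides of 0, from -1.14 (Tmem126b) to 1.97 (Ndufaf4). No nuclear subunit drawn for complexes III to V is called lower.

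The 13 subunits encoded by mitochondrial DNA summed to 5733 to 8038 CPM in isograft and 8471 to 9633 CPM in allograft libraries, without overlap. By test 5 were higher (38.5%, against 28.7% of all genes tested) and 0 lower. These were mt-Nd1 (0.60 ± 0.15, edgeR adjusted p = 0.0083), mt-Nd2 (0.44 ± 0.14, 0.020) and mt-Nd5 (0.27 ± 0.09, 0.014) of complex I, mt-Cytb (0.58 ± 0.19, 0.041) of complex III and mt-Co2 (0.50 ± 0.14, 0.0034) of complex IV. Calls were lost for mt-Nd1 without isograft replicate 1 (0.055) or allograft replicate 1 (0.091), and for mt-Nd2 without isograft replicate 1 (0.074), allograft replicate 1 (0.14) or allograft replicate 2 (0.060). They were lost for mt-Nd5 without isograft replicate 3 (0.15 log2, 0.11) or allograft replicate 2 (0.072), and for mt-Cytb without isograft replicate 1 (0.15), allograft replicate 1 (0.19) or allograft replicate 2 (0.095). mt-Co1, the catalytic core of complex IV, was at 1828 ± 299.8 and 2081 ± 90.04 CPM (0.19 ± 0.10, edgeR adjusted p = 0.12) and was called higher without isograft replicate 2 (0.0496). mt-Atp6 and mt-Atp8 of complex V were at 11.4 ± 6.40 and 21.0 ± 7.44 CPM and at 1.22 ± 1.02 and 3.40 ± 1.25 CPM. They were not called (edgeR adjusted p = 0.23 and 0.052), and both were called higher without isograft replicate 2 (1.43 log2, 0.0063, and 2.43 log2, 2.6e-05), as was mt-Atp8 without allograft replicate 3 (1.70 log2, 0.021). Mitochondrial genes have nuclear copies, and reads that map to both were left out of the counts. Of the 50-base stretches, 100% of those of mt-Co2, 99.5% of mt-Atp6 and 51.1% of mt-Co1 also occur in other genes. For mt-Nd1, mt-Cytb and mt-Atp8 the share was 0%. The levels of mt-Co2, mt-Atp6 and mt-Co1, and the calls given for them, are therefore uncertain.

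Other routes of electrons to ubiquinone were mixed, with 3 of 7 genes higher (42.9%, against 28.7% of all genes tested) and 2 lower. Gpd2, which feeds in electrons from glycerol phosphate, rose from 28.5 ± 0.92 to 45.7 ± 0.39 CPM (0.68 ± 0.08, edgeR adjusted p = 5.1e-07). Etfdh, the entry for electrons from fatty acid oxidation, fell from 44.8 ± 0.98 to 30.2 ± 2.18 CPM (-0.57 ± 0.08, edgeR adjusted p = 9.7e-06), and Sqor, the entry from sulfide, fell by 1.15 ± 0.23 (2.1e-04). Of 9 genes of ubiquinone synthesis 4 were higher (44.4%) and 1 lower. Pdss1, which starts the isoprenoid tail, rose from 3.36 ± 0.57 to 8.54 ± 0.95 CPM (1.34 ± 0.17, edgeR adjusted p = 1.2e-06), with Coq2 (0.65 ± 0.09, 2.8e-06) and Coq5 (0.56 ± 0.08, 4.5e-06). Of 13 nuclear regulators of respiratory genes and mitochondrial DNA, 8 were higher (61.5%) and 2 lower. Myc was at 41.5, 46.7 and 46.2 CPM in isograft and 458, 421 and 353 CPM in allograft libraries (3.20 ± 0.09, edgeR adjusted p = 5.4e-15). Pprc1, a coactivator of the PGC-1 family, went from 47.7 ± 2.94 to 198 ± 12.4 CPM (2.05 ± 0.08, edgeR adjusted p = 5.2e-14), and Tfb2m, a factor for mitochondrial transcription, from 19.7 ± 0.63 to 31.3 ± 3.23 CPM (0.67 ± 0.10, 7.8e-06). The 2 lower were the other members of that family, Ppargc1a, from 1.55 ± 0.35 to 0.57 ± 0.19 CPM (-1.46 ± 0.37, edgeR adjusted p = 0.0025), and Ppargc1b, from 11.7 ± 1.96 to 7.76 ± 0.51 CPM (-0.59 ± 0.14, 0.0012). Nrf1 and Gabpa, whose motifs were searched above and which were picked for that after their values were seen, rose by 0.27 ± 0.08 (edgeR adjusted p = 0.0049, and not called with library totals at 0.046, 0.62) and 0.44 ± 0.08 (5.8e-05).

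Read counting touches some of these results. In 11 of the 45 genes at least 20% of exon bases overlap another gene or at least 20% of the 50-base stretches recur in other genes, a limit set after the values were seen. Among those 11, 8 were higher and 1 lower, and among the other 34, 16 were higher and 1 lower (median 0.25, with complex V at 6 of 8, complex III at 3 of 4, complex IV at 3 of 7, complex I at 4 of 11 and complex II at 0 of 4). The highest values were 84.8% for Atp5l, 50.3% for Atp5o, 47.9% for Atp5h and 43.4% for Uqcrb, whose levels are therefore uncertain. Genes named outside the 45 pass the same limit, among them Cd247 (60.3%), Atpif1 (33.7%) and Hccs (25.9%) by exon overlap. By shared 50-base stretches they include Tfb2m (39.6%), Atp5f1 (38.7%), Ndufb4 (37.0%), Cox7c (27.9%) and Ndufa12 (26.2%). Abundant genes were called more often in these libraries. Of tested genes with a mean of over 16 CPM 40.7% were called higher, beside 16 of 33 members, and of those at or below it 18.7%, beside 8 of 12 members, again a limit set afterwards. Those 12 members lay at 4.79 to 12.8 CPM. The tested genes at or below the limit reached down to 0.41 CPM (Sdhaf1) or less, so the 2 sets are not matched in level. Short genes leaned upward in their median, with a log2 fold change of 0.11 in the shortest 20% of genes tested (median exon length 863 bases) and -0.09 in the longest 20%. They were not called higher more often: 23.6% were called higher and 15.7% lower in the shortest 20%, and 29.1% and 37.0% in the longest. The median length of the 45 genes was 1828 bases against 3781 for all genes tested. With an offset that removes the trend of length and GC content, 19 members were higher and 2 lower, and complex I had 1 higher in place of 5. The 2 lower were then Sdha and Ndufb3 (-0.43, edgeR adjusted p = 0.0093), while Ndufa13 lost its call (-0.19, 0.056), as did Uqcrb (0.13, 0.087), which left complex III with 4 of 6 higher.

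With libraries scaled by their totals, 11 of the 45 genes were called higher and 7 lower, where edgeR called 19.9% of all genes higher and 40.8% lower. The 11 were Cycs, Uqcrq, Uqcr10, Cox5a, Cox5b, Cox7a2, Cox7b, Atp5b, Atp5g1, Atp5j and Atp5k. The lower genes were Ndufa6, Ndufa13 and Ndufb3 of complex I, Sdha and Sdhc of complex II, Uqcrc1 of complex III and Atp5c1 of complex V. The median of the 45 genes was then 0.08 against -0.24 for all genes, with complex II at -0.26 and complex I at -0.05 below complexes V (0.15), III (0.15) and IV (0.16), as with TMM scaling. Those 11 genes and Sdha kept their calls in all 16 alternative settings tried. Of these 12, 0 belonged to complex I.

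**Figure D5:**
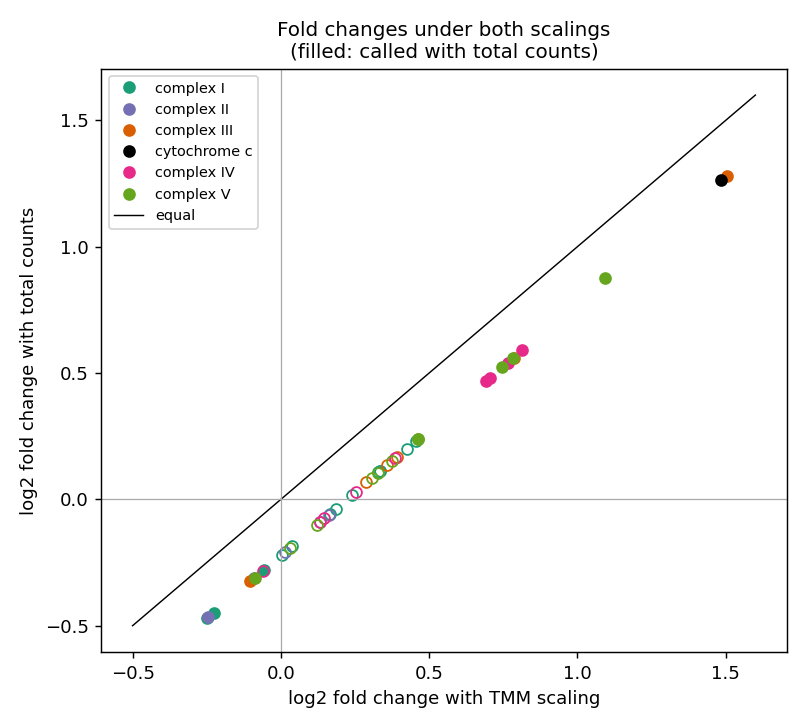
Log2 fold change of the 45 genes with TMM scaling (horizontal axis) against that with library totals alone (vertical axis), colored by complex, filled where called with library totals. All points lie below the line of equal values by a nearly fixed step, the filled points at the upper right are the 11 genes still called higher, and the filled points at the lower left are the 7 called lower.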

How the data were processed

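RNA was measured in 6 libraries. The authors, per the file headers, ran featureCounts 1.6.0 on fragments over exons and summed them per gene of Ensembl release 104 on GRCm39, and the deposited values are whole-number counts with no normalization. GRCm38 and mm10 are the builds in the submitters' processing notes, and no source used here gives the aligner's version. Neither strand nor multi-mapped reads appear among the recorded options, so by default both strands were pooled and reads with several places were dropped. Ensembl IDs gave a symbol for 52083 of 55416 genes.

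Genes were kept by edgeR's filterByExpr, libraries scaled by TMM, and allograft compared with isograft libraries by edgeR's two-sided quasi-likelihood test (robust) over all 14926 genes, calling genes at a Benjamini-Hochberg adjusted p of 0.05. The SE is the absolute log2 fold change over the root of F. The procedure was also run on simulated data with few changed genes, in balance up and down. That does not test it, or its scaling, where as many genes change as were called here. The members, the 35 lists and the tests were chosen with earlier results of these data known. Named genes are all members, with full values for the 3 smallest p of each complex and those lower, up to 3 genes with the smallest p of every other list, Cd3e, Ms4a1 and the subunit c genes. Of the marker lists this was done for T and B cells, and the others are given as sums, with one gene not reported here. Libraries of a group differed beyond sampling noise (chi-square per degree of freedom 9.58 to 19.99), so all were counted as separate. Promoters are from RefSeq on GRCm38.p6, upstream 250 bases, and those whose first transcribed bases matched a transcript of the gene were 36 of 40 windows.

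Alternatives were library totals or RLE in place of TMM, limma-voom or DESeq2 in place of edgeR, estimation that is not robust, a filter of 5 CPM in 3 libraries or none, a replicate block, leaving out any 1 library, leaving out immunoglobulin, hemoglobin and mitochondrial genes, and a length and GC offset. The software was R 4.3.3 with edgeR 4.0.16, DESeq2 1.42.0, limma 3.58.1 and mgcv 1.9.3, and matplotlib 3.10.9 for the plots.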

Additional observations from a re-analysis of the deposited data

How the results depend on the processing

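The count of members called higher was 24 and stayed between 18 and 24 in every setting but library totals (11). Members called lower were 2 (7 with library totals, 1 to 3 with a library left out). Complex I members called higher were 5, but 0 with library totals, 3 with at least 5 CPM in 3 libraries, 1 with the length and GC offset, and 1 to 5 with a library left out. Complex II had 0, and 0 to 1 with a library left out. With library totals complex III had 2 and complex V 4 called higher. Numbers of replicates were shared between groups, but same-numbered libraries did not deviate together (correlations from -0.06 to 0.05 over all pairs), so they were not treated as pairs; with the replicate block complex I had 3 called higher and all members 21. The cause of these shifts was not tested, except that library totals move all genes by one step and a library left out leaves fewer samples. Ndufa4 counted with complex I instead left 5 called higher in complex I and 5 in complex IV. Depth limits the least abundant members most: Atp5g1 had 71 to 268 counts a library.

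Listed genes given above only in counts were not recomputed one by one. Among the members and the other genes named by their fold change, signs turned for the following, none called by the alternative. With library totals these were Ndufv1 (-0.19), Ndufs3 (-0.057), Ndufa2 (-0.22), Ndufa7 (-0.036), Ndufb5 (-0.089), Sdhb (-0.21), Sdhd (-0.060), Cox4i1 (-0.076), Cox6a1 (-0.0895), Atp5d (-0.10), Atp5h (-0.19) and mt-Co1 (-0.036), and also Ms4a1 (-0.023), which TMM scaling had called higher. Without a low-count filter Ndufa2 was at -0.019 and Sdhb at -0.0088, and with the 5 CPM filter at -0.023 and -0.013. With the length and GC offset Ndufa2 was at -0.065, Atp5h at -0.12, mt-Co1 at -0.0145 and Atp5g2 at 0.061. With a library left out, values ran from -0.093 to 0.0805 for Ndufa2, -0.0645 to 0.087 for Sdhb, -0.090 to 0.12 for Atp5h, -0.13 to 0.095 for Uqcrh and -0.15 to 0.091 for Atp5g2.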
